A study of Mus musculus with 3 samples.

Results

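Neuropeptide signalling was examined here through 46 genes chosen by name: 22 precursors of neuropeptides, 1 peptide-binding protein, 11 genes of the secretory granule and of peptide processing, and 12 peptide receptors. Of these, 44 had a probe set that carried their symbol alone, among 22180 genes with such probe sets on the array, and each of the 44 had 1 such probe set. Pthlh, the precursor of parathyroid hormone-related peptide, and Pcsk2, a granule protease, had none and were not measured here. RNA came from 3 biological replicate cultures, which form 1 group without a comparison group. Each was grown from the medial ganglionic eminence (MGE) of wild-type CD-1 mouse embryos at embryonic day 13, the ventral forebrain region where many inhibitory interneurons of cortex and striatum are born. All 3 were grown with FGF2 at 40 ng/ml and B27 at 2%, were given AraC at 1 µM, which kills dividing cells, for 24 h from day 5, and were kept for 2 more days after it was washed out. Cells of the MGE that do not divide, glia included, could remain in such cultures, and each array measured a whole culture.

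Neuropeptides are made as longer precursor proteins that enter the regulated secretory pathway. Granins such as Chga, Chgb and Scg2 help to form dense-core granules, the proteases Pcsk1 and Pcsk2 cut the precursor at pairs of basic residues, Cpe trims the exposed basic residues, and Pam adds the amide group that many peptides need for activity. The released peptides act mostly on G protein-coupled receptors, and several of them mark classes of forebrain interneurons, among them neuropeptide Y in MGE-derived cells and vasoactive intestinal peptide in cells of the neighbouring caudal eminence.

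Values are log2 signals, given as mean ± SD over n = 3 cultures or for cultures 1, 2 and 3 in that order. A gene was called above background where limma's moderated test, adjusted over all probe sets tested, placed its mean over 6.26 log2 units, the 95th percentile of sensory receptor probe sets (olfactory, vomeronasal and bitter taste). This line is a low one. Of 134 genes of other families not expected in brain, such as keratin-associated proteins and defensins, 20 (14.9%) also passed it, and 4 (2.99%) passed a second line drawn 1 log2 unit higher. Both counts are therefore given below, the stricter one as the count with a margin of 1. A level of 1 gene is not set against that of another, because the binding strength of a probe set is its own.

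By this call 30 of the 44 measured genes were above background, against 63.4% of all 20751 genes tested. With a margin of 1 the count was 17, against 47.6% of all genes. It was 19, against 49.9%, with the 99th percentile as the line, and 18, against 48.5%, with the line taken from the other families. The members as a whole were thus near the background share under the first line and under it with the margin, and the 3 roles differed in their counts. All 10 granule and processing genes passed (9 with the margin), 8 of 12 receptors did (4), and 11 of 21 precursors did (3). Crhbp, the binding protein, passed both lines. The median of the 3-culture means lay 3.74 log2 units over the line for granule and processing genes, 1.04 for receptors and 0.31 for precursors, beside 1.08 for all genes tested. These counts and medians are descriptions of lists and carry no test. The binding strength of each probe set enters both, so they do not rank the RNA levels of the lists.

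**Figure D1:**
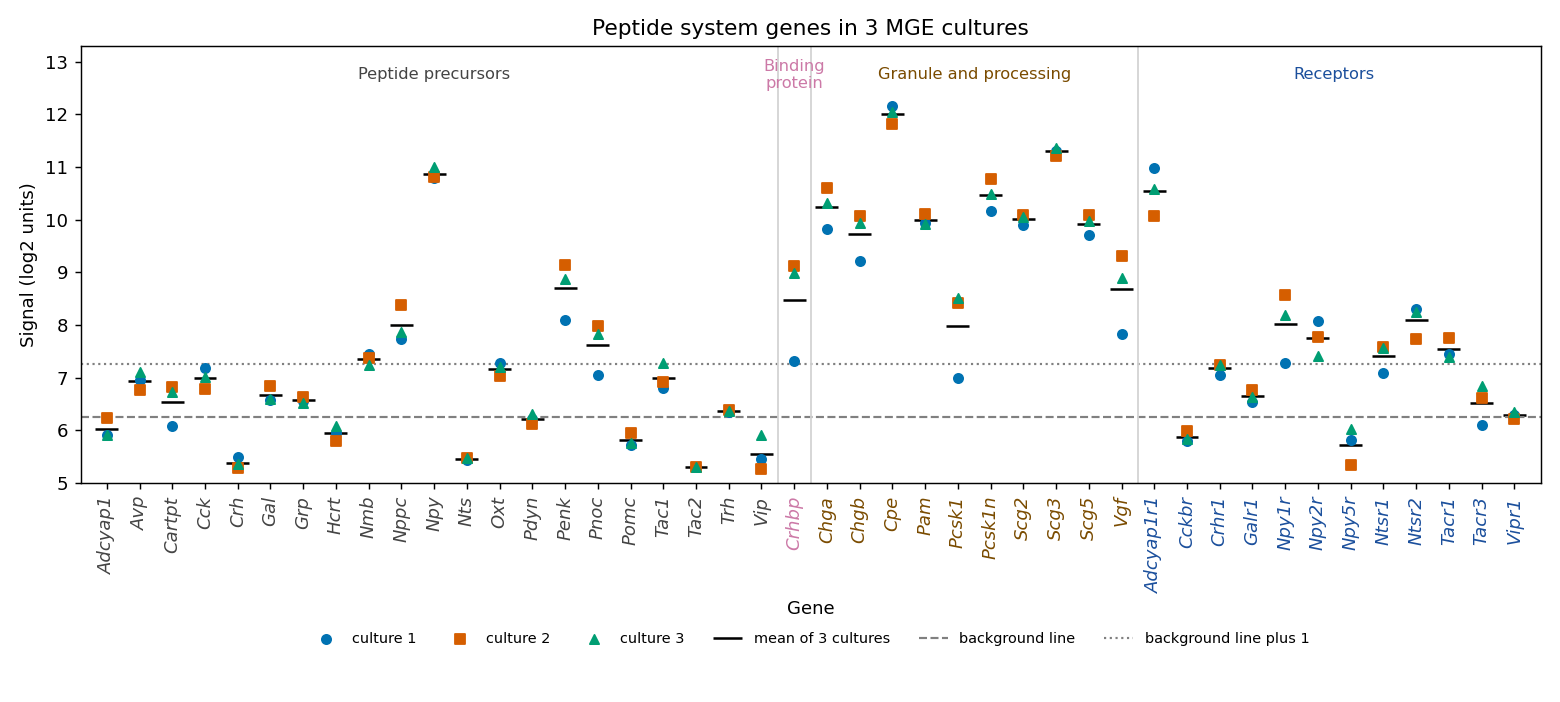
Log2 signal of the 44 measured genes in each of the 3 cultures (symbols), with the mean of the cultures (bars), the background line at 6.26 (dashed) and the line 1 log2 unit higher (dotted). All granule and processing genes have their mean over the dashed line, while 8 of 21 precursors have it under that line.

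Among the precursors, Npy, Penk and Nppc passed both lines. Npy encodes neuropeptide Y, a peptide of MGE-derived interneurons that dampens transmitter release. Its signal was 10.78, 10.81 and 11.00 (10.87 ± 0.12, adjusted p = 1.43e-06), so the 3 cultures lay close together. Penk encodes the precursor of the enkephalins, endogenous opioid peptides. Its signal was 8.09, 9.15 and 8.88 (8.71 ± 0.55, adjusted p = 0.000339), with culture 1 the low one. Nppc, which encodes C-type natriuretic peptide, gave 7.74, 8.38 and 7.86 (8.0 ± 0.34, adjusted p = 0.000237), with culture 2 above the other cultures.

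A further 8 precursors passed the lower line alone. Pnoc, the precursor of the opioid-related peptide nociceptin, gave 7.04, 7.98 and 7.83 (7.62 ± 0.50, adjusted p = 0.00225), again lowest in culture 1. Nmb, the precursor of neuromedin B, a bombesin-like peptide, gave 7.46, 7.38 and 7.24 (7.36 ± 0.11, adjusted p = 7.18e-05). The other 6 had means between 6.57 and 7.17, under the 7.22 that is the 95th percentile of the other families not expected in brain. They were Tac1, which encodes substance P and neurokinin A (7.0 ± 0.25), Cck, cholecystokinin (7.0 ± 0.20), Gal, galanin (6.67 ± 0.14), Grp, gastrin-releasing peptide (6.57 ± 0.06), and the hypothalamic hormones Avp, vasopressin (6.95 ± 0.17), and Oxt, oxytocin (7.17 ± 0.13). Signal of this size was also given by genes of those other families. Among 10 marker genes of hypothalamic and neuroendocrine cells, 5 were over the lower line and 0 with the margin, against 63.4% and 47.6% of all genes tested. The source of the Avp and Oxt signal was not tested.

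The other 10 precursors did not pass. Vip, the caudal eminence marker vasoactive intestinal peptide, gave 5.46, 5.28 and 5.91, all under the line. Crh, corticotropin-releasing hormone, gave 5.49, 5.28 and 5.37, and Tac2, neurokinin B, gave 5.31, 5.30 and 5.31. Nts, the precursor of neurotensin (5.46 ± 0.02), Adcyap1, which encodes the peptide PACAP (6.02 ± 0.19), Pdyn, the precursor of the dynorphins (6.21 ± 0.09), Hcrt, orexin (5.95 ± 0.14), and Pomc, the precursor of melanocortins and endorphin (5.82 ± 0.12), also had means under the line. Trh, thyrotropin-releasing hormone (6.37 ± 0.02, adjusted p = 0.0668), and Cartpt, the CART peptide precursor, had means over the line without passing. Cartpt gave 6.08, 6.82 and 6.73 (adjusted p = 0.131), so cultures 2 and 3 lay over the line and culture 1 under it, and without culture 1 the gene passed (adjusted p = 0.00519). A mean at background does not show that no cell made the peptide, since a few cells could be diluted in a whole culture.

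The machinery that stores and cuts peptides gave signal well over the line for most of its genes. Among the granins and related proteins, Scg3, a granin-binding protein of the granule membrane, gave 11.31, 11.22 and 11.36 (11.30 ± 0.07, adjusted p = 1.37e-06). Scg2, the precursor of secretoneurin, gave 9.90, 10.10 and 10.05 (10.01 ± 0.10, adjusted p = 1.65e-06). Both varied little between cultures. Chga, chromogranin A, gave 9.82, 10.60 and 10.31 (10.25 ± 0.39), and Chgb, chromogranin B, gave 9.21, 10.07 and 9.93 (9.74 ± 0.46), each lowest in culture 1. Vgf, a granin-like precursor that neurotrophins and neuronal activity are known to induce, gave 7.84, 9.30 and 8.89 (8.68 ± 0.76, adjusted p = 0.00115), so culture 1 lay more than 1 log2 unit under culture 3.

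The processing enzymes followed different patterns over the cultures. Cpe, the carboxypeptidase, gave 12.15, 11.82 and 12.04 (12 ± 0.17, adjusted p = 1.42e-06), and Pam, the amidating enzyme, gave 9.95, 10.12 and 9.91 (9.99 ± 0.11). Both differed by less than 0.4 log2 units between any 2 cultures. Pcsk1, the proprotein convertase of the granule, gave 7.0, 8.41 and 8.52 (7.98 ± 0.85, adjusted p = 0.00598), with culture 1 well under the other cultures. It was the granule gene that did not pass with the margin of 1 (adjusted p = 0.111), and it did not pass without culture 2 (adjusted p = 0.0836). Pcsk1n, the inhibitor of Pcsk1, gave 10.17, 10.77 and 10.49 (10.48 ± 0.30), and Scg5, a chaperone of Pcsk2, gave 9.71, 10.10 and 9.97 (9.93 ± 0.20).

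The cyclic AMP response element, bound by CREB family factors, is a known promoter element of granin and convertase genes, and the members' promoters were searched for it. RefSeq windows of build GRCm38.p6, from 250 bases before to 50 after a gene's start, were matched by symbol for 39 of the 46 members. Cpe, Crh, Galr1, Grp, Penk, Pnoc and Vgf had no entry. The full element TGACGTCA, which reads the same on both strands, was in the windows of 4 of the 39, and in 2.03% of the 27025 genes with a window. It began 112 bases before the start in Cartpt, 72 in Chgb, 78 in Pcsk1 and 68 in Scg2. The last 130 bases before the start of these genes are shown 5′ to 3′ with the element in capitals, because they are the members that share it.
Cartpt, chr13:99900684-99900813, minus strand: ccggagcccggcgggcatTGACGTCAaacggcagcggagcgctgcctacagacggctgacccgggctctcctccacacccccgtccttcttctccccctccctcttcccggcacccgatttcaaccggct
Chgb, chr2:132781512-132781641, plus strand: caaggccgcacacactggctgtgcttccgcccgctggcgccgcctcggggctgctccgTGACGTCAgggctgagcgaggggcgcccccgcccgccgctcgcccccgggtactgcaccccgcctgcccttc
Pcsk1, chr13:75089727-75089856, plus strand: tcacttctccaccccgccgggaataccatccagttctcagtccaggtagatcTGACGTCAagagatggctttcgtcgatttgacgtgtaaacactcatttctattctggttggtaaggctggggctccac
Scg2, chr1:79440027-79440156, minus strand: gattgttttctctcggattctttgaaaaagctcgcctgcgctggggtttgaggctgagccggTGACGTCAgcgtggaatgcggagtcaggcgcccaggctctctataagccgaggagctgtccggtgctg
The TATA motif TATAAA, searched on both strands, was in the windows of 8 of the 39 members and in 15.7% of all genes, and it was in none of these 4. Only this exact form was searched, so near forms such as TATAAG in the Scg2 stretch were not counted. A match describes the letters in a window and not a factor bound there.

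A wider set of 36 granule and processing genes was chosen with earlier results of these data known. Its shares also lay over the 63.4% and 47.6% of all genes tested. Of 35 measured, 29 passed the lower line (23 with the margin). They included Ptprn, a phosphatase-like protein of the granule membrane (10.32 ± 0.42), Cadps, which primes dense-core granules for release (10.66 ± 0.37), and Syt4, a synaptotagmin of dense-core granules (10.07 ± 0.39). Syt4 had 3 probe sets, and only the 1 given here was called. The 6 genes of this set that did not pass are not named. Of 40 other precursors, 38 were measured and 14 were above background (4 with the margin). Sst, somatostatin, was 1 of those 4, at 12.97, 13.36 and 13.27 (13.2 ± 0.20). Of 51 other receptors, sorting receptors and receptor partners, 48 were measured and 31 were above background (9 with the margin), among them Ednrb, an endothelin receptor (11.43 ± 0.50), and Sort1, a sorting receptor that also binds neurotensin (10.63 ± 0.10). The plot of shares sets these groups beside all genes tested.

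**Figure D2:**
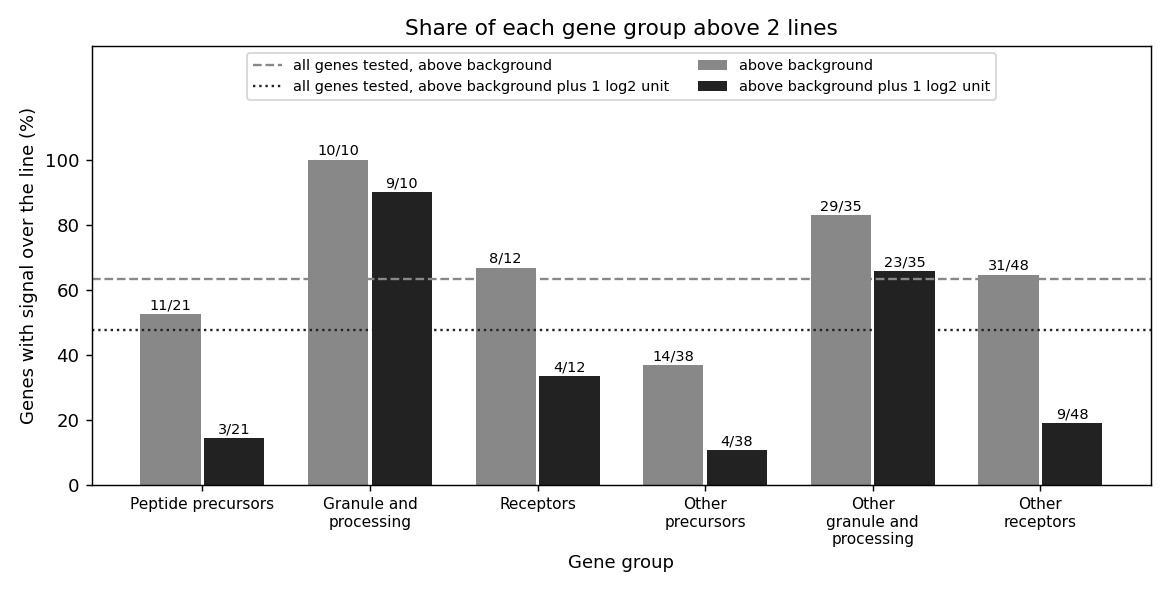
Percent of measured genes of each group with signal above background (grey) and above background plus 1 log2 unit (black), with the number passing and measured over each bar. The dashed and dotted lines mark the same shares for all genes tested, 63.4% and 47.6%, and both groups of granule and processing genes lie over both lines while both groups of precursors lie under both.

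Among the receptors, Adcyap1r1, Ntsr2, Npy2r and Tacr1 passed both lines. Adcyap1r1, the receptor for PACAP, gave 10.99, 10.07 and 10.59 (10.55 ± 0.46, adjusted p = 2.39e-05), with culture 2 the low one. Ntsr2, the low-affinity neurotensin receptor, known from astrocytes, gave 8.30, 7.73 and 8.25 (8.09 ± 0.31, adjusted p = 0.000146), also lowest in culture 2. Npy2r, a neuropeptide Y receptor that is often presynaptic, gave 8.07, 7.77 and 7.41 (7.75 ± 0.33, adjusted p = 0.000384), lowest in culture 3. Tacr1, the receptor for substance P, found on some interneurons, gave 7.46, 7.76 and 7.40 (7.54 ± 0.19, adjusted p = 0.000131), and its cultures lay closer together.

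Npy1r, Ntsr1, Crhr1 and Galr1 passed the lower line alone. Npy1r, a largely postsynaptic neuropeptide Y receptor, gave 7.28, 8.57 and 8.19 (8.02 ± 0.67, adjusted p = 0.00236 and 0.0526 with the margin), with culture 1 under the other cultures. Ntsr1, the high-affinity neurotensin receptor, gave 7.10, 7.59 and 7.56 (7.42 ± 0.28, adjusted p = 0.000545). Crhr1, the receptor for corticotropin-releasing hormone (7.18 ± 0.10, adjusted p = 0.000119), and Galr1, a galanin receptor (6.65 ± 0.12, adjusted p = 0.00367), had means under 7.22. The receptors that did not pass were Npy5r, a further neuropeptide Y receptor (5.73 ± 0.35), Cckbr, a cholecystokinin receptor (5.87 ± 0.10), Vipr1, a receptor for vasoactive intestinal peptide (6.28 ± 0.07, adjusted p = 0.524), and Tacr3, the receptor for neurokinin B. Tacr3 gave 6.10, 6.61 and 6.84 (adjusted p = 0.142), and it passed without culture 1 (adjusted p = 0.0161).

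Set beside their peptides, the receptors fell into several combinations, given here by the lower line. Of the genes named in them, only Npy, Npy2r, Tacr1, Penk, Oprl1, Nppc, Npr2 and Npr3 also passed with the margin of 1. Tac1, Cck, Gal, Galr1, Grp, Grpr and Oprd1 had means under 7.22, a level that genes of other families not expected in brain also reached. For neuropeptide Y the precursor and the receptors Npy1r and Npy2r were above background, and Npy5r, Npy4r (5.17 ± 0.10) and Npy6r (3.96 ± 0.06) did not pass. For the tachykinins, Tac1 and its receptor Tacr1 were above background, and Tac2 and its receptor Tacr3 did not pass, nor did Tacr2, the neurokinin A receptor (5.90 ± 0.14). For galanin, Gal and Galr1 passed, and Galr2 did not (5.49 ± 0.19). For cholecystokinin, Cck passed, and neither Cckbr nor Cckar (5.77 ± 0.01) did. Among the opioid-related peptides, Pnoc and its receptor Oprl1 (9.25 ± 0.12) were above background. Penk was too, with the delta receptor Oprd1 (6.69 ± 0.13) over the lower line, while the mu receptor Oprm1 (5.74 ± 0.30) did not pass. Pdyn and the kappa receptor Oprk1 (5.69 ± 0.04) did not pass either. Nppc was above background with Npr2 (8.24 ± 0.11), its guanylyl cyclase receptor, and Npr3 (8.69 ± 0.50), its clearance receptor, Nmb with Nmbr (7.50 ± 0.37), and Grp with Grpr (7.20 ± 0.59).

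For several other peptides at least 1 receptor passed the lower line and the precursor did not. Of the genes given next as above background, Crhbp, Ntsr2, Adcyap1r1 and Mc4r also passed with the margin of 1. Crhr1, Crhr2 and Vipr2 had means under 7.22, the line of the other families not expected in brain. Crh was at background, while Crhr1, Crhr2 (7.06 ± 0.09) and the binding protein Crhbp were above it. Nts was at background while Ntsr1 and Ntsr2 were above it. Adcyap1 and Vip were at background while Adcyap1r1 and Vipr2, a receptor for both peptides (6.96 ± 0.02), were above it. Pomc was at background while Mc4r, a melanocortin receptor (7.56 ± 0.09), was above it and Mc3r, another (5.38 ± 0.12), did not pass. Pth1r, the receptor for the unmeasured Pthlh, was above the lower line (6.69 ± 0.19). Avpr1a (6.76 ± 0.19) and Oxtr (6.91 ± 0.03), receptors for vasopressin and oxytocin, were above it too. Unlike the precursors above, Avp and Oxt also passed the lower line, though not with the margin. The vasopressin receptor Avpr1b (5.61 ± 0.08) did not pass. For thyrotropin-releasing hormone, Trh and the receptor Trhr (6.0 ± 0.29) did not pass, while the second receptor Trhr2 (6.54 ± 0.10) passed the lower line. For orexin neither Hcrt nor its receptors Hcrtr1 (6.20 ± 0.31) and Hcrtr2 (6.35 ± 0.19) passed. The wider set lists 28 receptors of these peptides, of which 8, Trhr2, Npr3, Mc3r, Avpr1b, Npy4r, Npy6r and the neurotensin-binding sorting receptors Sort1 and Sorl1, were added to the count after their values were seen. Of the 28, 27 were measured, 15 passed the lower line and 6, Oprl1, Npr2, Npr3, Mc4r, Sort1 and Sorl1, passed with the margin. These were 55.6% and 22.2%, against 63.4% and 47.6% of all genes tested. Before the 8 were added, 19 were measured, 11 passed the lower line and 3 passed with the margin. Signal from a peptide gene and from its receptor gene in 1 culture does not show which cells made either.

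Several members differed between the cultures. The median SD over the cultures was 0.22 log2 units for the 30 members above background, beside 0.12 for all 13155 genes above background. A span of more than 1 log2 unit between the lowest and the highest culture was found for 5 of the 30, against 1.32% of all genes above background. These were Crhbp, Pcsk1, Vgf, Npy1r and Penk, and each was lowest in culture 1. Crhbp, the secreted protein that binds corticotropin-releasing hormone and that marks some somatostatin interneurons, gave 7.31, 9.13 and 8.99 (8.48 ± 1.01, adjusted p = 0.00445), so the highest culture was 3.53-fold over the lowest. The same ratio was 2.88 for Pcsk1, 2.77 for Vgf, 2.46 for Npy1r and 2.08 for Penk. Without culture 1, 0 of the 30 spanned more than 1 log2 unit, against 0.16% of all genes above background. A count of 0 is near that share. Without culture 2 the 3 that did were Vgf, Pcsk1 and Crhbp, against 0.35%. Without culture 3 the same 5 did, against 1.19%. Crhbp itself did not pass the call without culture 2 (adjusted p = 0.0646).

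With 1 array per culture a difference between cultures has no replicate check. Culture 1 was the lowest for 18 of the 30 members, against 42.4% of all genes above background. It lay more than 0.5 log2 units under both other cultures for 7, against 2.0% of all genes above background. The 7 were the 5 named above with Pnoc and Chgb. Culture 2 lay more than 0.4 log2 units under both other cultures for 2 members, Adcyap1r1 and Ntsr2, against 1.73% of all genes above background. Both limits were set after the values were seen. Npy, Scg2, Scg3, Pam, Grp, Crhr1, Galr1 and Nmb spanned less than 0.25 log2 units, 8 of the 30 against 55.9% of all genes above background. The plot of differences from the 3-culture mean shows this order.

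**Figure D3:**
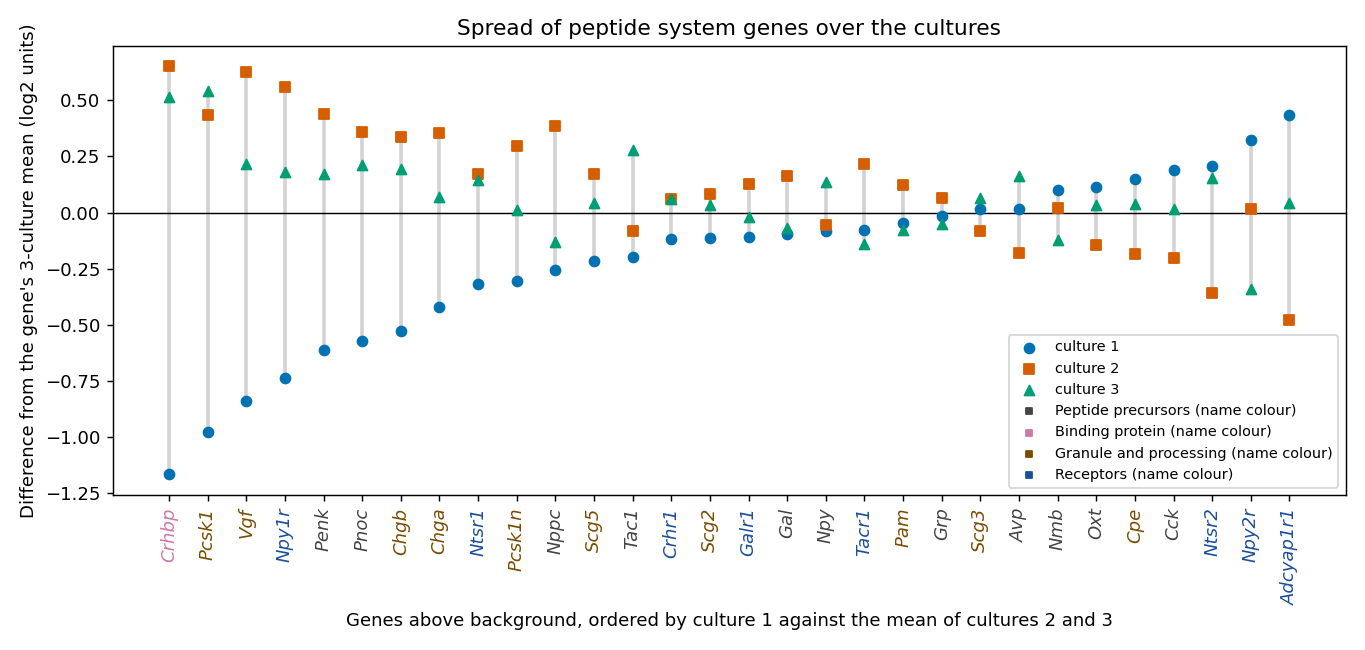
Difference of each culture from the gene's own 3-culture mean, in log2 units, for the 30 members above background, ordered by culture 1 against the mean of the other cultures. Culture 1 lies lowest for Crhbp, Pcsk1, Vgf, Npy1r, Penk, Pnoc and Chgb on the left, and culture 2 lies lowest for Adcyap1r1 and Ntsr2 on the right.

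Markers of the cell types in the cultures moved between cultures as well. All 8 neuronal and all 9 measured GABA and MGE lineage markers were above background with the margin. So were 6 of 6 cell cycle, 5 of 6 progenitor, 6 of 7 oligodendrocyte lineage and 4 of 6 astrocyte markers. The cultures labelled as purified interneurons thus also held RNA of genes used as markers of glia and dividing cells. Whether cells still divided was not tested. With the margin, 0 of 5 glutamatergic, 0 of 7 microglial, 0 of 6 endothelial and 1 of 7 pericyte and fibroblast markers passed. In the same order, 0, 5, 5 and 5 of them passed the lower line. With the margin, 3 of 5 striatal markers and 1 of 5 markers of the caudal eminence passed, and 4 and 3 passed the lower line. Of all genes tested, 63.4% passed the lower line and 47.6% passed with the margin. The summed log2 signal of the 9 GABA and MGE markers was 88.6, 92.2 and 91.1 in cultures 1, 2 and 3, and that of the 8 neuronal markers was 90.9, 92.9 and 92.4, so both were lowest in culture 1. That of the 6 astrocyte markers was 54.0, 47.9 and 51.8, lowest in culture 2. The 5 glutamatergic markers, which did not pass the lower line, summed to 29.8, 33.4 and 30.4, highest in culture 2. The 6 cell cycle markers summed to 59.4, 57.9 and 57.7, the 6 progenitor markers to 60.2, 57.7 and 58.6, and the 7 oligodendrocyte lineage markers to 67.3, 65.4 and 65.7, each highest in culture 1. In whole cultures, fewer cells of a type and less RNA per cell cannot be told apart. Culture 1 lay 0.29 log2 units under the mean of the other cultures in the median GABA and MGE marker, and 0.39 under it in the median granule and processing gene. It was the lowest culture for 8 of the 9 GABA and MGE markers. The largest drops were 0.88 in Gad1 and 0.66 in Slc32a1, which make and load GABA. In Gad2 it lay lower by 0.44. Among the transcription factor genes it lay lower by 0.43 in Maf, 0.29 in Dlx5, 0.18 in Lhx6, 0.17 in Dlx2 and 0.14 in Nkx2-1. In Sox6 it lay higher by 0.13. In the 5 members of the widest span, chosen for that span, the difference was 1.75 for Crhbp, 1.47 for Pcsk1, 1.26 for Vgf, 1.11 for Npy1r and 0.92 for Penk. The part of cell composition in these differences was not tested.

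**Figure D4:**
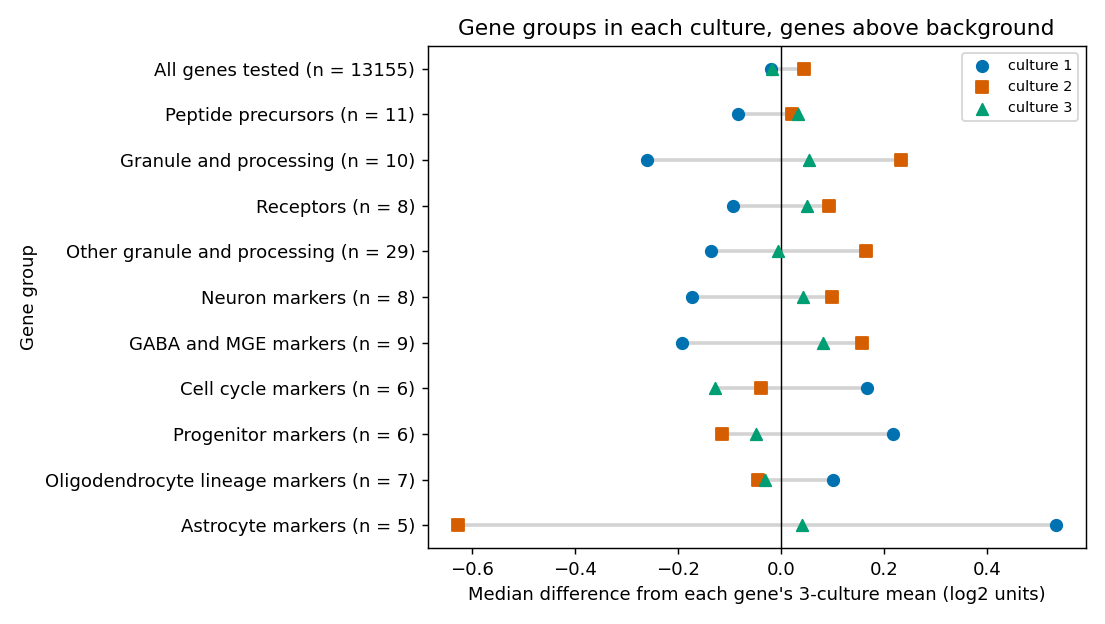
Median difference from each gene's 3-culture mean, in log2 units, for the genes above background of each group (n in brackets), by culture. Granule and processing genes, neuron markers and GABA and MGE markers are lowest in culture 1, and astrocyte markers are lowest in culture 2 and highest in culture 1.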

How the data were processed

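The authors deposited a log2 signal for every probe set in each culture. The submitters' processing notes name oligo and RMA, a method of background correction, normalization between arrays and probe summarization, with versions, settings, filters and genome build not given in the sources used here. The log2 values ran from 2.07 to 13.9, and the medians of cultures 1, 2 and 3 were 6.57, 6.52 and 6.56. Arrays give no read depth, and their number limits the precision.

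Of 41345 probe sets, 23521 carried 1 gene symbol in the platform table, 1814 several and 16010 none, and only the first were used. All 44 member probe sets had their gene ID in the RefSeq table of GRCm38.p6, under the same symbol. Background came from 1440 receptor probe sets. For the other 22081, limma 3.58.1 (R 4.3.3) tested in 1 direction whether the intercept exceeded the 95th percentile of background, with Benjamini-Hochberg adjustment over all of them and calls at an adjusted p under 0.05. The prior had 2.13 degrees of freedom. A gene with several probe sets was called if any was, and is given by the one with the highest mean. The fit was tested on simulated data. The 13 alternatives are given in the closing section. The members, lists and tests were chosen with earlier results of these data known. All members may be named, with the receptors of member peptides and up to 12 other pathway genes by mean over the line among those passing with the margin. The span without each culture was added after the data were seen. Sstr2, Gad1, Gad2, Slc32a1, Lhx6, Nkx2-1, Maf, Dlx2, Dlx5, Sox6 and 8 receptors added to a count were named after their values were seen.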

Additional observations from a re-analysis of the deposited data

How the results depend on the processing

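The height of the background line was the choice that moved the counts. At the 99th percentile of background, with the other families not expected in brain as background, and with a margin of 1, the members above background numbered 19, 18 and 17 in place of 30. In the same order the precursors numbered 4, 3 and 3 in place of 11, the receptors 5, 5 and 4 in place of 8, and the other pathway genes 37, 36 and 36 in place of 74, while the granule and processing genes numbered 9 each time in place of 10. Over the 3 fits that left out 1 culture the counts ranged from 28 to 32 for all members, 11 to 12 for precursors, 9 to 10 for granule genes, 8 to 9 for receptors, 68 to 75 for other pathway genes and 0 to 5 for members spanning over 1 log2 unit. Among the members, the calls under an intensity trend, a second quantile normalization, median centring, without dim probe sets and with the mean of probe sets were those given above for all 44. The 90th percentile added 5 members and every culture above the line with no test added 1. Members and receptors whose mean then lay under the line are given in log2 units over it for the 99th percentile, the other families and the margin: Cck (-0.10, -0.22 and -0.26), Tac1 (-0.10, -0.22 and -0.26), Gal (-0.42, -0.54 and -0.59), Grp (-0.52, -0.64 and -0.69), Avp (-0.15, -0.27 and -0.31), Galr1 (-0.45, -0.57 and -0.61), Oprd1 (-0.41, -0.53 and -0.57), Vipr2 (-0.13, -0.25 and -0.30), Crhr2 (-0.035, -0.15 and -0.20), Pth1r (-0.41, -0.52 and -0.57), Avpr1a (-0.34, -0.46 and -0.50), Oxtr (-0.18, -0.30 and -0.35) and Trhr2 (-0.56, -0.68 and -0.72). For the other families and the margin alone they were Oxt (-0.044 and -0.088), Crhr1 (-0.038 and -0.082) and Grpr (-0.014 and -0.057). Among the 3 arrays, signal near background limits what could be called. No paired analysis was possible because the 3 cultures form 1 group.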

Other observations

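Among the other pathway genes, 2 of the 74 above background (2.7%) spanned more than 1 log2 unit between cultures. The share of all genes above background was 1.32%, and the difference was not tested. Grpr, the receptor for gastrin-releasing peptide, gave 6.58, 7.75 and 7.28 in cultures 1, 2 and 3, and Sstr2, a somatostatin receptor, gave 7.74, 8.78 and 8.44, each lowest in culture 1 as were Npy1r and Crhbp. Culture 1 was the lowest for 10 of the 31 other receptors above background, 4 of 14 other precursors and 21 of 29 other granule and processing genes, beside 42.4% of all genes above background. Culture 2 was the lowest for 9 of those 14 precursors, beside 24.4% of all genes above background.

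Tac2 and Nts each had exactly the same deposited value in 2 of the 3 cultures, as did 1939 probe sets (4.69%) of the table. In 159 (0.385%) the value was the same in all 3. The SD of Tac2 over the cultures was 0.006.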
